A study of Homo sapiens with 8 samples.

Results

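FAM20B, ZC3H12A, C5AR1, HGD and TMOD3 are 5 of the genes that the study lists as particular to lung cancers with persistently active NRF2, and the H3K27ac regions around them were described here one by one. Acetylated lysine 27 of histone H3 (H3K27ac) was profiled by ChIP-seq in A549, a human lung adenocarcinoma line, harvested 48 hours after siRNA transfection. Of 6 libraries, 3 came from cells given control siRNA and 3 from cells given NRF2 siRNA, with siRNA 28 used for replicate 1 and siRNA 30 for the other 2. Peaks of all 6 lists were merged where they shared at least 1 bp, and every merged region that touched the body of a member gene or the 50 kb on either side of it was kept. This gave 44 of 49186 regions, with 9 at FAM20B, 7 at ZC3H12A, 8 at C5AR1, 6 at HGD and 14 at TMOD3. All cells were of 1 line, no untransfected cells were compared, and no file of the 2 input samples was analysed here. The study regarded genes as direct NRF2 targets partly from these same H3K27ac libraries. It also lists ChIP primers for enhancers of all 5 genes. By ChIP with PCR it reports less H3K27ac at loci of this kind in A549 given NRF2 siRNA, without naming those loci in its text. The direction of change at these loci is therefore not independent evidence.

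NRF2 is a transcription factor that turns on genes for the handling of electrophiles and oxidants. KEAP1 normally marks it for degradation, and KEAP1 is mutated in A549 cells, so NRF2 stays active there. Paired with a small MAF protein, NRF2 binds antioxidant response elements, short sequences that partly resemble the site of AP-1 factors, and H3K27ac is laid down at active promoters and enhancers. Of the members, FAM20B encodes a kinase that phosphorylates xylose in the linker of proteoglycan sugar chains. ZC3H12A encodes Regnase-1, an RNase that degrades messages of inflammatory genes. C5AR1 is the receptor of the complement fragment C5a, HGD is the homogentisate dioxygenase of tyrosine breakdown, and TMOD3 is a tropomodulin that caps the pointed ends of actin filaments.

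The 5 regions whose rank was lower with NRF2 siRNA at an adjusted p under 0.05 in limma were read for antioxidant response element cores, written as TGACNNNGC and TGAGNNNGC and searched on both strands of the GRCh37 sequence. A form that joins the AP-1 site TGANTCA to the end of the element, TGANTCAGC, was added after the values were known, and its matches overlap those of the other patterns. The lines give TGACNNNGC and TGANTCAGC matches in these regions, with the match in capitals and 20 bases on either side, 5′ to 3′ on the strand of the match. The last line gives a match in the ZC3H12A promoter region, whose rank hardly moved, for comparison.
FAM20B intron, chr1:179027810-179027858, minus strand: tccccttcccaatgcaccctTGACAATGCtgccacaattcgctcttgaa
FAM20B intron, chr1:179029865-179029913, minus strand: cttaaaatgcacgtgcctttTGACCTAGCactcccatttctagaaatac
FAM20B intron, chr1:179030103-179030151, minus strand: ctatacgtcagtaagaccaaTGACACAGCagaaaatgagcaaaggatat
HGD promoter region, chr3:120397543-120397591, minus strand: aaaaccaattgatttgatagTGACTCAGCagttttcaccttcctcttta
HGD promoter region, chr3:120399791-120399839, minus strand: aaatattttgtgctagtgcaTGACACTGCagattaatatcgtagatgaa
HGD promoter region, chr3:120402078-120402126, plus strand: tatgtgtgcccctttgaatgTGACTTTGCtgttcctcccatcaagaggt
HGD promoter region, chr3:120400502-120400550, minus strand: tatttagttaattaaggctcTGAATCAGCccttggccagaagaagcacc
HGD intron, chr3:120380119-120380167, minus strand: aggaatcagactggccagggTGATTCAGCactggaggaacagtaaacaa
HGD upstream, chr3:120412433-120412481, minus strand: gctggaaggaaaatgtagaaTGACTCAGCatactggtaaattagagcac
LEO1 and MAPK6 promoter region, chr15:52262268-52262316, plus strand: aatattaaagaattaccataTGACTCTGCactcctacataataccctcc
ZC3H12A promoter region, chr1:37942147-37942195, plus strand: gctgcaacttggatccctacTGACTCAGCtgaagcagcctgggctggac

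The same letters, TGACTCAGC, stood in the HGD promoter region, in the region upstream of HGD, in the ZC3H12A promoter region and in a region near C5AR1 over exons of CCDC9 whose score did not fall. The last held 3 TGACNNNGC and 2 overlapping TGANTCAGC matches, as many as 3.46% and 1.12% of 4573 regions whose length lay within 10% of its own. In the FAM20B intron TGACNNNGC had 4 matches, of which 3 are shown, and TGANTCAGC had 0. Among 1729 regions whose length lay within 10% of this one, 14.9% held at least 4 TGACNNNGC matches. The HGD promoter region held 2 TGANTCAGC matches, as many as 9.40% of 904 regions of like length. Over all 44 regions at the 5 loci, TGACNNNGC had 0.358 matches per kb, against 0.396 over 49154 regions with a reference sequence. For TGANTCAGC the densities were 0.0928 and 0.0740 per kb. TGAGNNNGC gave 0.470 and 0.499 per kb, TTGCNNAA, a C/EBP pattern, 0.517 and 0.575, and TGANTCA 0.464 and 0.472. In the 5 regions of these loci that were called lower, TGACNNNGC had 0.409 matches per kb, beside 0.612 in all 1108 regions called lower. TGANTCAGC had 0.182 matches per kb, beside 0.274 in those regions and 0.0655 in all 657 called higher. A match is a description of letters, not a site of binding.

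Because the lists hold no read counts, regions were compared by rank within a list. The study states read totals for each library, lower for replicate 1 of both groups than for the others, and these totals were not used here. The percentile of a region is the share of that list's peaks whose fold enrichment was at or below its own, and a region that a library did not call was set to 0 in means. The lists ran from 23885 to 41571 peaks, with NRF2 siRNA replicate 1 the shortest. Peaks within 500 bp of a coding start were found in all 6 libraries at KRT8, KRT18 and EPCAM and in 5 at CDH1, epithelial markers, and in 0 at KRT19. At NKX2-1, SFTPB and SFTPC, genes of the lung lineage, and at PTPRC, CD3E and CDH5 of blood and vessel cells, 0 libraries had such a peak. For the test, ranks over the 32673 regions called in at least 3 libraries were turned into normal scores, the values a standard normal distribution takes at those ranks, and compared with limma. Regions that a library did not call shared a tied score there. That floor depended on how many regions were uncalled, so it differed between libraries. A score change is NRF2 siRNA minus control siRNA, in these score units. The study describes the libraries of a group as biological replicates from independent experiments.

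Of the 44 regions, 36 were called in at least 3 libraries and tested, and 8 were not. Among the tested regions 26 had a lower and 10 a higher score with NRF2 siRNA, and 5 were called lower at a limma adjusted p under 0.05, against 3.39% of all tested regions. None was called higher (0 of 36, against 2.01% of all), and at an unadjusted p under 0.05 limma gave 13 lower (background 10.7%) and 1 higher (background 11.9%). In 12 regions all control percentiles lay above all NRF2 siRNA percentiles (background 12.8%), and in 0 the reverse held (background 7.39%). Of all 44 regions, 4 were called in 3 control and 0 NRF2 siRNA libraries (background 2.27%) and 0 the other way round (background 0.83%). These 4 had passed the filter through the control libraries alone, so they had to differ. They account for 1 of the 5 lower calls, and their tests are given as descriptions only. Among the 22 regions called in all 6 libraries, 4 were called lower (background 1.36%) and 8 did not overlap between the groups in that direction (background 11.3%). With the replicate number as a block, 9 of 36 were called lower (background 6.62%), 3 of them among those 4 regions, and 0 higher (background 5.72%). Without control siRNA replicate 2 the count of lower calls was 0, as it was for all regions of the genome, and 6033 of those then had an unadjusted limma p under 0.05.

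**Figure D1:**
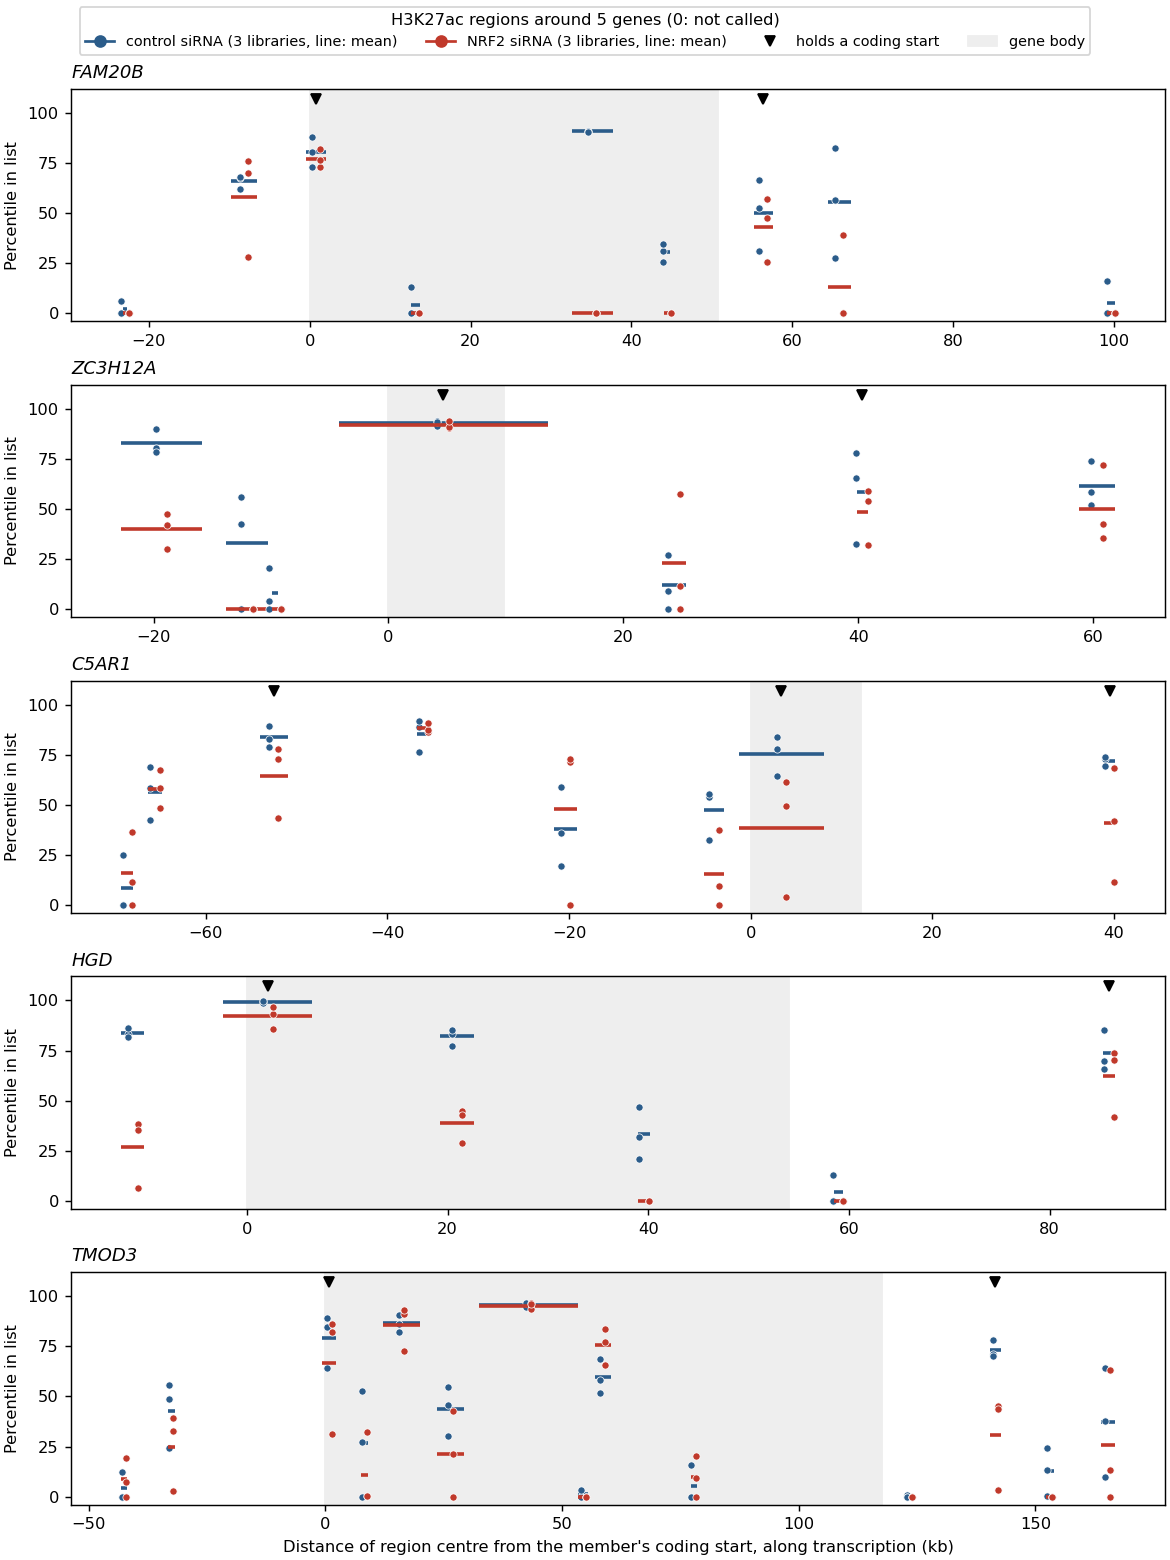
Within-list percentile (vertical axis, 0 to 100, 0 for a region not called) of the 44 H3K27ac regions against the distance in kb of each region's centre from the member's coding start, along the direction of transcription, with points for 3 control siRNA (blue) and 3 NRF2 siRNA (red) libraries and lines at the group means drawn over the length of the region. The FAM20B intronic region stands near 90 in the control libraries and at 0 in the NRF2 siRNA libraries, while the promoter regions of FAM20B and ZC3H12A keep their place.

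FAM20B held the largest change of the 5 loci, and it lay inside the gene and not at its promoter. The region, chr1:179027485-179032685, is intronic and its centre lies 35.1 kb downstream of the start. It stood at percentiles 91.2, 90.5 and 90.5 of the control lists, with fold enrichments of 8.37, 8.61 and 10.5, and was called in none of the 3 NRF2 siRNA libraries. Control peaks covered 4001, 4150 and 5201 bp of it, and the nearest peak in an NRF2 siRNA library was 18023 to 18067 bp away. The 3 control libraries ranked it alike, and the groups did not overlap (exact permutation p = 0.1, the smallest that 3 against 3 libraries can give). Its score fell by 2.81 (SE 0.299, limma adjusted p = 0.00628), a description of a region that entered the test through its control calls alone. The change was -2.30 in the siRNA 28 pair and -2.93 and -3.19 in the siRNA 30 pairs. In each pair the NRF2 siRNA score was the tied floor of uncalled regions, which differs between libraries. These values therefore do not show a weaker change with siRNA 28. Without control siRNA replicate 2 its limma adjusted p was 0.0504, and the other 5 fits with a library left out gave 0.00299 to 0.0466.

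A second and weaker intronic region of FAM20B had the same pattern of calls. It lies at chr1:179039023-179039709, 44.4 kb downstream of the start, and stood at percentiles 31.1, 25.8 and 34.8 in the control libraries, with no call in the NRF2 siRNA libraries. Its score change of -1.01 (SE 0.323) did not pass the threshold in limma (adjusted p = 0.102), and it too had entered the test through the controls alone. A further region, intronic in the neighbouring TOR3A, which encodes a torsin ATPase, lies beyond the 3′ end of FAM20B at chr1:179059405-179062200. In the control libraries it was at percentiles 27.6, 56.7 and 82.6, and of the NRF2 siRNA libraries replicate 3 alone called it, at 39.1. The groups overlapped there, and the change of -1.25 (SE 0.339) had a limma adjusted p of 0.0656, or 0.0182 with the block.

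At the FAM20B promoter no such difference was seen. The region at chr1:178994413-178996949, which holds the coding start, stood at percentiles 73.0, 80.6 and 87.7 in control and 82.0, 73.1 and 76.3 in NRF2 siRNA libraries. The groups overlapped, and the score change was -0.10 (SE 0.230, limma adjusted p = 0.851). The promoter of TOR3A, 55.1 kb from the FAM20B start, changed by -0.06 (SE 0.196, limma adjusted p = 0.901). An intergenic region 6598 bp upstream of FAM20B, chr1:178985085-178988341, stood at percentiles 62.1, 67.3 and 68.1 in control and 28.0, 75.9 and 70.2 in NRF2 siRNA libraries. Its score change was -0.01 (SE 0.224, limma adjusted p = 0.988), and only NRF2 siRNA replicate 1 lay below the control values.

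HGD was the locus with the most regions past the threshold, 3 of its 5 tested regions, and all 5 had a lower score. Its promoter region, chr3:120394607-120403464, is 8858 bp long and was among the top regions of every control list. It stood at percentiles 99.7, 99.0 and 99.6 in control and 85.8, 93.2 and 97.0 in NRF2 siRNA libraries. Each NRF2 siRNA library was below each control library, and the covered length went from 6773, 8433 and 8843 bp to 4775, 6136 and 6669 bp. The score fell by 1.03 (SE 0.229, limma adjusted p = 0.0360), with pair changes of -1.47, -0.82 and -0.81.

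Regions upstream of and within HGD went to lower percentiles than the promoter region did. On the score scale an intronic region (-1.06) fell about as far as the promoter region (-1.03). The upstream region, chr3:120411348-120413637, begins 10262 bp from the HGD start and overlaps an exon of the neighbour RABL3, a small GTPase-like gene. Its percentiles were 83.4, 86.0 and 81.7 in control and 38.5, 6.63 and 35.3 in NRF2 siRNA libraries, and its score fell by 1.45 (SE 0.329, limma adjusted p = 0.0387). An intronic region, chr3:120378496-120381805, centred 20.9 kb downstream of the start, went from percentiles 83.4, 77.4 and 85.4 to 28.8, 45.0 and 42.8. Its score fell by 1.06 (SE 0.223, limma adjusted p = 0.0307). In both regions the control libraries lay close together and far above the NRF2 siRNA libraries, with means of 83.7 ± 2.19 against 26.8 ± 17.6 and 82.1 ± 4.18 against 38.9 ± 8.77 (SD, n = 3 each, exact permutation p = 0.1 for each).

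A weaker HGD intronic region, chr3:120360866-120362108, was called in all control libraries, at percentiles 46.9, 21.0 and 31.8, and in 0 NRF2 siRNA libraries. Its score change of -1.04 (SE 0.367) had a limma adjusted p of 0.132, and it had entered the test through the controls alone. The fifth tested region holds the start of NDUFB4, a subunit of respiratory complex I, and changed by -0.21 (SE 0.218, limma adjusted p = 0.617). With 1 library left out, the promoter region passed the threshold in 0 of 6 limma fits (adjusted p from 0.0540 to 0.142). The upstream and intronic regions passed only without NRF2 siRNA replicate 1 (limma adjusted p = 0.00590 and 0.0191) and otherwise reached up to 0.139 and 0.121. In the 7 alternative limma fits that used all 6 libraries, each of the 3 regions passed.

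At ZC3H12A the score changes of the promoter and the upstream region differed in size, and that difference was not tested. The promoter region, chr1:37935933-37953762, spans 17830 bp and covers the whole gene. The percentiles were 93.7, 91.6 and 93.4 in control and 90.6, 90.9 and 93.7 in NRF2 siRNA libraries, and the groups overlapped. Its peaks covered 13744, 13325 and 17830 bp in control and 9926, 10481 and 10744 bp in NRF2 siRNA libraries, so the covered length did not overlap while the rank did. The share of all regions whose covered length differs in this way was not counted, here or at the other loci. Its score change was -0.03 (SE 0.199, limma adjusted p = 0.948). The intergenic region at chr1:37917408-37924310, which ends 15871 bp before the start, was at percentiles 89.8, 80.4 and 78.5 in control and 41.8, 30.0 and 47.6 in NRF2 siRNA libraries. The groups did not overlap, with means of 82.9 ± 6.07 and 39.8 ± 8.98 (SD, n = 3 each, exact permutation p = 0.1). Its peaks covered 4304, 4141 and 6746 bp in control and 994, 1137 and 2131 bp in NRF2 siRNA libraries. The score change of -1.10 (SE 0.289) missed the threshold in limma (adjusted p = 0.0611) and passed with the replicate block (adjusted p = 0.0129), and over 13 alternative fits its adjusted p ran from 0.0129 to 0.216, with 5 past the threshold.

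Between these 2 regions lay a pair of weaker intergenic ones that were called in 2 control libraries each and in 0 NRF2 siRNA libraries, too few to be tested. Further downstream, 2 regions belong to MEAF6, a subunit of histone acetyltransferase complexes. Their score changes were -0.12 at the MEAF6 promoter and 0.37 in an intron of MEAF6, with limma adjusted p of 0.874 and 0.584.

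C5AR1 had no region past the threshold with or without the block. The region with its coding start, chr19:47811796-47821212, stood at percentiles 83.7, 64.4 and 78.0 in control and 4.19, 49.6 and 61.3 in NRF2 siRNA libraries. All NRF2 siRNA values were below the control values, the one in replicate 1 by the most (exact permutation p = 0.1). The score change was -0.73 (SE 0.247, limma adjusted p = 0.119), with pair changes of -1.33, -0.38 and -0.47, and the siRNA 28 pair moved the most. Peaks covered 8532, 8720 and 9417 bp of the region in control and 2904, 4863 and 7504 bp in NRF2 siRNA libraries.

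An intronic region just before the coding start, chr19:47807973-47810201, moved the same way. It was at percentiles 54.1, 32.2 and 55.1 in control libraries, was not called in NRF2 siRNA replicate 1 and was at 9.65 and 37.4 in replicates 2 and 3. The groups overlapped at this region, and its score change was -0.72 (SE 0.255, limma adjusted p = 0.132).

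A region around a noncoding start of C5AR1, chr19:47791480-47793971, changed with the pair. It stood at percentiles 19.4, 35.9 and 59.1 in control lists, was not called in NRF2 siRNA replicate 1, and stood at 71.1 and 73.0 in replicates 2 and 3. The score change was 0.28 (SE 0.358, limma adjusted p = 0.698). The highest-ranked region of the locus, chr19:47776342-47777945, overlaps exons of CCDC9 and lies 197 bp from the start of INAFM1. Its percentiles were 76.2, 88.7 and 91.7 in control and 86.5, 87.3 and 91.0 in NRF2 siRNA libraries, a change of 0.13 (SE 0.206, limma adjusted p = 0.771). The neighbouring promoters of CCDC9 and DHX34, an RNA helicase of nonsense-mediated decay, had changes of -0.47 and -0.57 (limma adjusted p = 0.218 and 0.177), with no overlap between the groups at either.

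TMOD3, the longest of the genes, showed both directions, 7 regions lower and 5 higher of 12 tested. Its coding start region, chr15:52121184-52124170, stood at percentiles 64.0, 84.4 and 89.0 in control and 31.2, 82.1 and 86.2 in NRF2 siRNA libraries. Replicate 1 was the lowest of both groups, and the score change was -0.20 (SE 0.278, limma adjusted p = 0.724). A domain of 20941 bp inside the gene, chr15:52154312-52175252, which holds an exon and a noncoding start, was the highest-ranked of the locus. The domain was at percentiles 95.2, 94.8 and 96.4 in control and 96.5, 93.6 and 96.0 in NRF2 siRNA libraries, a change of 0.03 (SE 0.208, limma adjusted p = 0.946). Peaks covered 16617, 18839 and 20341 bp of it in control and 11955, 15842 and 16221 bp in NRF2 siRNA libraries, with no overlap in length. For this too no share over all regions was counted. The largest rise of the 5 loci lay close by, at chr15:52178715-52182146, from percentiles 51.8, 58.4 and 68.5 to 65.9, 77.0 and 83.5. The groups overlapped, and the change of 0.53 (SE 0.189) had a limma adjusted p of 0.137, with pair changes of 0.46, 0.52 and 0.60.

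Between the start and this domain lay 3 intronic regions. The strongest, chr15:52133971-52141913, was 7943 bp long and stood at percentiles 82.0, 90.9 and 86.4 in control and 72.9, 91.2 and 93.0 in NRF2 siRNA libraries, so the groups overlapped (score change 0.10, SE 0.223, limma adjusted p = 0.833). The others changed by -0.11 (SE 0.315, limma adjusted p = 0.882) and -0.47 (SE 0.272, limma adjusted p = 0.351). Upstream, 2 regions in introns of TMOD2, a tropomodulin of the same family, changed by 0.40 and -0.21 (SE 0.226 and 0.258, limma adjusted p = 0.336 and 0.690).

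The only TMOD3 region past the threshold belonged to other genes. It lies at chr15:52262175-52264526, 22683 bp beyond the end of TMOD3, and holds the starts of LEO1, a subunit of the PAF1 elongation complex, and MAPK6, an atypical MAP kinase. It stood at percentiles 71.0, 70.0 and 78.1 in control and 3.29, 45.2 and 43.6 in NRF2 siRNA libraries. The groups did not overlap, and the score fell by 0.86 (SE 0.197, limma adjusted p = 0.0401), with pair changes of -0.95, -0.64 and -0.98. Without NRF2 siRNA replicate 1 its limma adjusted p was 0.0434, and it did not pass in the other 5 fits that left a library out (up to 0.131). Of 7 alternative fits with all libraries it passed in 5, the exceptions being a q-value of at most 1e-05 and the filter of at least 2 calls. With regions within 20 kb in place of 50 kb it was no longer among the regions of TMOD3. A weak region over an exon of MAPK6, chr15:52273994-52275753, was at percentiles 0.211, 24.3 and 13.3 in control lists and called in 0 NRF2 siRNA libraries (score change -0.62, SE 0.340, limma adjusted p = 0.324).

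The 8 regions with under 3 calls were 3 at FAM20B, 2 at ZC3H12A, 1 at HGD and 2 at TMOD3. All but 1 of them were called in control libraries alone, the exception being a region in an intron of TMOD3 that control replicate 3 and NRF2 siRNA replicate 3 called near the bottom of their lists, at percentiles 3.34 and 0.0486. The filter on calls kept these regions out of the test, and control replicate 3, the longest list, called most of them. The share of such regions over the genome was not counted, so their direction is given as a description only.

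**Figure D2:**
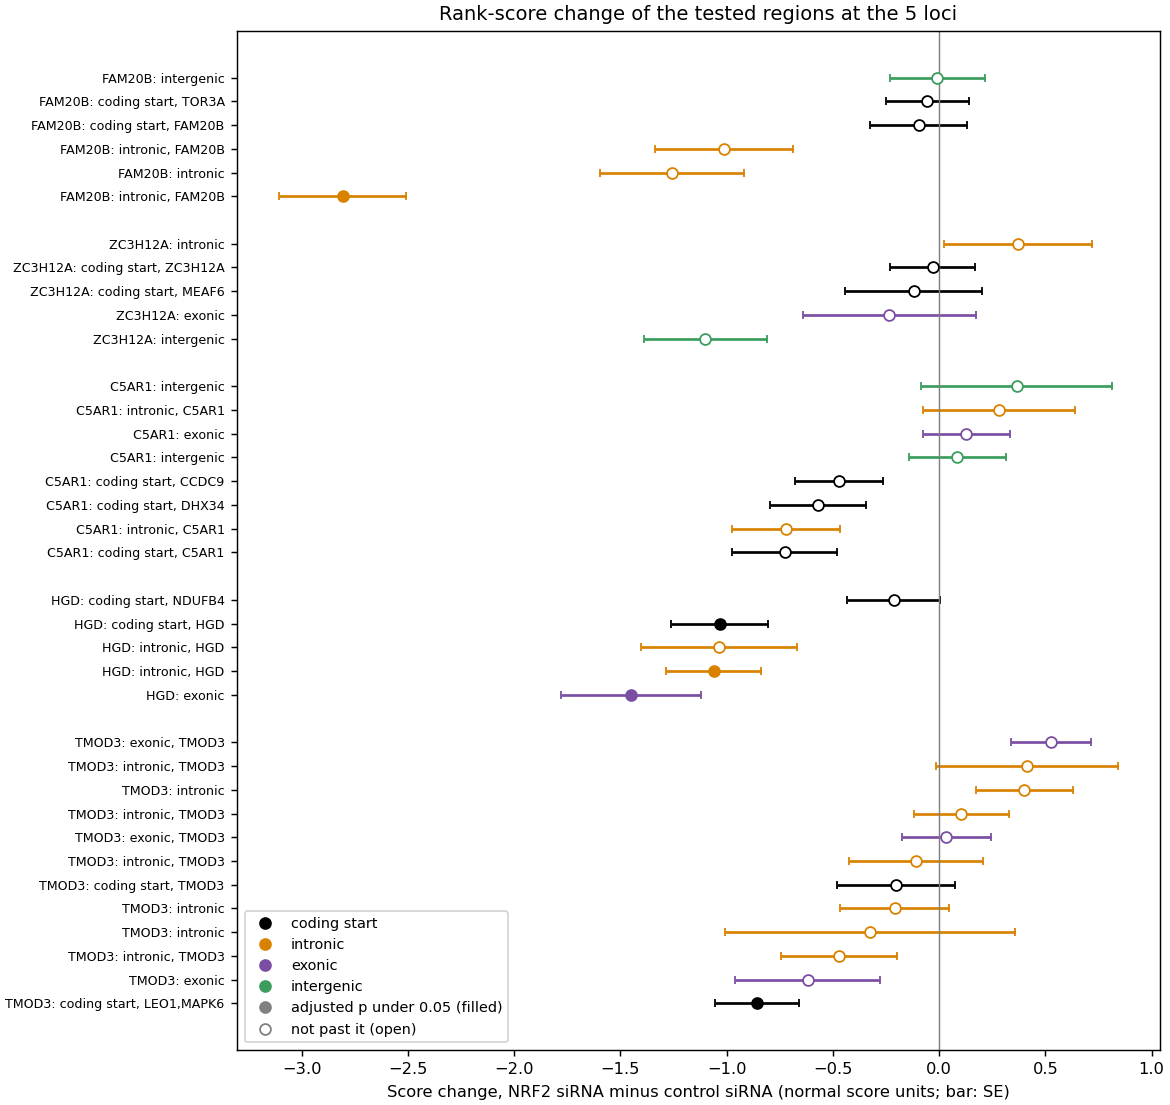
Score change, NRF2 siRNA minus control siRNA in normal score units, of the 36 tested regions (points, with bars for the SE), grouped by locus and coloured by place, filled where the limma adjusted p was under 0.05. The 5 filled points lie at FAM20B, HGD and TMOD3, and the FAM20B intronic region, at -2.81, is the farthest from 0.

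Promoters were then set against the other regions. A total of 11 regions held the start of a protein-coding transcript, 5 of members and 6 of neighbours, and all 11 were called in all 6 libraries. All 11 had a lower score with NRF2 siRNA, and 2 were called lower by limma, at HGD and at LEO1 and MAPK6 (background 1.05% of regions with a coding start). Their median change was -0.21, against -0.06 over 9932 tested regions with a coding start, of which 57.8% were lower. Leaving out a single library moved it to -0.45 (control replicate 2), -0.36 (control replicate 1) or -0.36 (NRF2 siRNA replicate 3), and the sign stayed negative in all 6 such fits. Of the 5 starts of the members themselves, 1 passed, and their changes ran from -1.03 at HGD to -0.03 at ZC3H12A.

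Of the 33 regions without a coding start, 25 were tested, 15 with a lower and 10 with a higher score. A total of 3 were called lower (background 4.41% of such regions), or 7 with the replicate block (background 8.39%). The 4 regions that passed the filter through control calls alone are among the 15. They supply 1 of the 3 lower calls and 3 of the 7 with the block. Their median change was also -0.21, against 0.07 over 22741 tested regions of that kind, of which 44.4% were lower. It became 0.01 without control siRNA replicate 1 and ran to -0.35 without NRF2 siRNA replicate 1. Changes ran from -2.81 to 0.53, against -1.03 to -0.03 at promoters. The -2.81 belongs to a region called in control libraries alone, whereas all promoter regions were called in all 6 libraries. Among regions called in all 6 libraries, 11 had no coding start, and 6 of them had a lower and 5 a higher score. Their changes ran from -1.45 to 0.53, with a median of -0.01. The median over 15 tested intronic regions was -0.33, over 6 exonic regions -0.10 and over 4 intergenic regions 0.04.

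At promoters the siRNA 28 pair had the lowest median of the 3 pairs, a difference that was not tested. The median change over the 11 promoter regions was -0.75 in pair 1 and -0.19 and -0.43 in pairs 2 and 3, and over the 25 regions without a coding start -0.42, -0.26 and -0.38. Over all tested regions the pair medians were 0.07, -0.04 and -0.15 with a coding start and 0.25, 0.06 and 0.11 without one. The 0.25 equals the change of any region that neither library of pair 1 called. It arises from the tied scores of uncalled regions and is not a measured rise, so it is no baseline for pair 1. At the 11 promoter regions the median percentile was 31.9 in NRF2 siRNA replicate 1, against 72.9 and 70.5 in replicates 2 and 3, and 73.0, 70.0 and 85.0 in the control libraries. Over all tested regions with a coding start it was 45.5, 62.1 and 67.8 in NRF2 siRNA and 55.3, 64.0 and 74.4 in control libraries. Pair 1 differs from the others in the siRNA and also in the naming of its peaks, which lack a flow cell identifier that pairs 2 and 3 carry, and in fewer reads by the study's account, so siRNA, batch and depth cannot be told apart. All 5 regions called lower had a negative change in each of the 3 pairs. They were called on these same scores, so this agreement is not separate support.

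**Figure D3:**
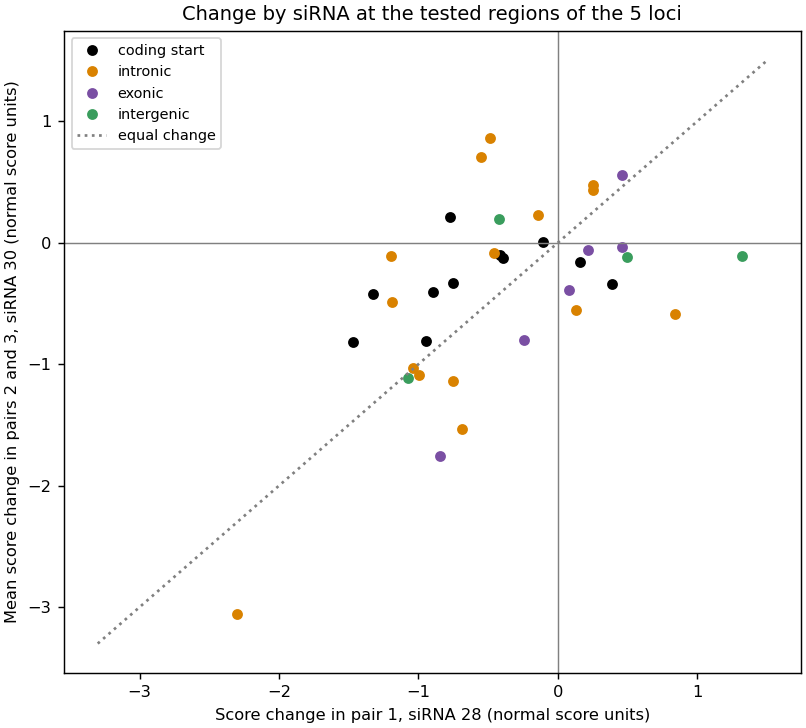
Score change in pair 1, with siRNA 28 (horizontal axis, normal score units), against the mean score change in pairs 2 and 3, with siRNA 30 (vertical axis, same units), for the 36 tested regions, coloured by place, with a dotted line where both are equal. The FAM20B intronic region lies at the lower left, and most promoter regions lie left of 0.

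The other 25 genes of the study's list that could be read from its text had 129 regions, 91 of them tested. By the same limma fit 3 were called lower and 2 higher (background 3.39% and 2.01%). With the block the counts were 13 and 2 (background 6.62% and 5.72%). A lower score was seen in 56 and a higher one in 35, or 61.5% lower against 48.5% of all tested regions. Their median change was -0.16, beside -0.21 over the 36 tested regions of the 5 genes and 0.02 over all regions. The study regarded only part of its list as direct NRF2 targets, and the 25 genes were not split by this.

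RefSeq promoter sequences of the GRCh38.p14 assembly, which span 300 bases around a start, were found for FAM20B, ZC3H12A, C5AR1 and TMOD3. TGACNNNGC, TGANTCAGC, TTGCNNAA and TGANTCA had 0 matches in these 4 sequences, and TGAGNNNGC had 1, in TMOD3. Among 35116 RefSeq promoters, 13.3% held TGACNNNGC, 18.3% TGAGNNNGC, 1.36% TGANTCAGC, 10.5% TTGCNNAA and 7.71% TGANTCA. The matches printed above for HGD and ZC3H12A came from the wider H3K27ac regions.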

How the data were processed

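H3K27ac libraries of A549 cells were compared as deposited peak lists. The authors aligned reads to hg19 with Bowtie2 2.2.6, called broad peaks in each library with MACS2 2.1.0.20151222 and applied the ENCODE blacklist. The deposited lists hold 4 values per peak, namely an integer score, a fold enrichment (a ratio), and p- and q-values, both as −log10. Only positions, fold enrichment and, in 1 alternative, the q-value were used, and 0 columns of other samples were left out. Genes came from GENCODE (version lifted to GRCh37). Of 202238 peaks, 136 lay on sequences whose names were absent from the GRCh37 genome sequence used.

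The highest fold in a region gave its rank. Scores were fitted with limma 3.58.1 (R 4.3.3) and adjusted by Benjamini-Hochberg over 32673 regions at a threshold of 0.05. This step was also run on simulated scores, without ties for uncalled regions and without correlation between libraries of the same number. That run therefore does not show how the fit behaves on scores with these features. Other steps used Python 3.11.15 and pysam 0.24.0. Libraries with the same number in their titles deviated together (r = 0.398, 0.199 and 0.363), so the numbers were treated as pairs. Replicate 1 had fewer reads in both groups by the study's account, and shared depth was not separated from pairing. The main fit and the exact permutation test did not use the pairs. Alternatives were the replicate block, equal list lengths, a q-value of at most 1e-05, other overlap and call rules and leaving out each library. Regions named are those with a member's start, past the threshold, called in 1 group alone, or with the largest change or highest control percentile of a locus. The members, lists and tests were chosen with earlier results of these data known. The TMOD3 region with the largest rise, the TOR3A intronic region and the promoters of neighbouring genes were named outside this rule, after their values were seen. One region and 1 sequence match are not reported by name here.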

Additional observations from a re-analysis of the deposited data

Results flagged for a closer look

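In 4 named regions the siRNA 28 pair moved one way and both siRNA 30 pairs the other. The differences were not tested, and siRNA, batch and depth cannot be told apart. At the FAM20B promoter region the score change was 0.39 in pair 1 and -0.25 and -0.43 in pairs 2 and 3, so pair 1 exceeded the mean of the others by 0.72. At the noncoding start of C5AR1 it was -0.55 in pair 1 and 0.89 and 0.51 in the others, a difference of -1.25. In the region over CCDC9 near C5AR1 the difference was 0.50, and in the TMOD3 domain with the noncoding start it was 0.28, and pairs 2 and 3 changed by at most 0.10 in size in both of these.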

How the results depend on the processing

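Over the alternatives, 0 regions of the 5 loci were called higher in any limma fit. The count called lower, 5, became 9 with the replicate block, which treats libraries of the same number as pairs. It lay between 4 and 7 in the other fits with all libraries. With 1 library left out it ran from 0, without control siRNA replicate 2, to 6, without NRF2 siRNA replicate 1, and was 1 in each of the other 4 fits, the FAM20B intronic region. With equal list lengths 7 of 28 tested regions were lower, while over the genome 1321 were lower and 1185 higher. The median change of regions without a coding start, -0.21, was -0.10 when only regions called in all 6 libraries were ranked and fitted and ran from -0.353 to 0.0105 with 1 library left out. The promoter median ran from -0.446 to -0.148 with 1 library left out and kept its sign in these fits and the other alternatives. Of the named regions, those whose sign turned were 4 with changes near 0. FAM20B's promoter region ran from -0.29 to 0.00275 with 1 library left out. ZC3H12A's ran from -0.0794 to 0.0553, being 0.0239 without NRF2 siRNA replicate 2, and was 0.0661 with a length-weighted mean fold. TMOD3's ran from -0.364 to 0.0616. The TMOD3 domain with a noncoding start ran from -0.0915 to 0.138, being -0.00390 without control siRNA replicate 2, and was -0.23 with the mean fold. The block changed the call of 4 tested regions, 2 near FAM20B and 1 each near ZC3H12A and HGD, and no other call at these loci. The cause of these changes was not tested. The lists hold no read counts, so no interval could be set on a missing call.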
